A study of Mus musculus with 6 samples.

Results

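The CXC chemokines are small secreted proteins that direct the migration of leukocytes, and 9 of their genes were followed here in mouse bone marrow-derived macrophages exposed to medium from tumour cells. The 9 genes were taken by symbol from a table of 55421 genes. They comprise the neutrophil attractants Cxcl1, Cxcl2 and Cxcl3, the platelet-type Ppbp and Pf4, the interferon-induced Cxcl9 and Cxcl10, the membrane-bound Cxcl16, and Cxcl14. All 9 were found, and all 9 passed the filter on low counts, as did 13853 genes in the table. The series held 6 libraries of polyadenylated RNA from wild-type macrophages grown with 20 ng/mL macrophage colony-stimulating factor (M-CSF) and 10% fetal bovine serum. The conditioned-medium group was 3 cultures, here called wells. They were kept for 24 h in a 50% mixture of that medium and medium taken from LL-2 cultures. LL-2 are Lewis lung carcinoma cells of the mouse. The untreated group was 3 wells kept for 24 h in the M-CSF and serum medium alone. The comparison asks how macrophage transcripts differ in medium from these tumour cells. Medium from a non-tumour culture was not analysed here, and mixing also lowered the share of fresh medium. Tumour-cell products, conditioning as such and dilution therefore cannot be told apart.

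CXC chemokines take their name from the paired cysteines near their amino terminus, which are separated by a single residue. Those with a glutamate-leucine-arginine motif before the cysteines, such as the products of Cxcl1, Cxcl2 and Cxcl3, act on the receptor Cxcr2 and draw neutrophils. The products of Cxcl9 and Cxcl10 lack that motif, are induced in macrophages by interferons and draw activated T and NK cells through Cxcr3. The products of Pf4 (platelet factor 4) and Ppbp (pro-platelet basic protein) are stored in platelet granules, and macrophages can also transcribe Pf4.

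Total counts per library ran from 28447825 to 30040682 in conditioned medium and from 24179548 to 25916709 in untreated wells. The macrophage label matched its markers, as Adgre1, Csf1r, Cd68 and the other 8 of 11 macrophage markers were detected, with summed levels of 62519 to 66459 CPM in conditioned medium and 54905 to 63928 CPM in untreated wells. Lyz2 made up most of that sum, and the other 10 summed to 14820 to 15122 CPM in conditioned medium and 12423 to 13684 CPM in untreated wells. Of the 11 markers, 5 were higher in conditioned medium, Csf1r among them, and 3 were lower, with Adgre1 and Cd68 among those. The shares over all tested genes were 12.6% higher and 15.2% lower, at an adjusted p under 0.05 in edgeR. CPM is the count scaled to a common library size, here the one set by the trimmed mean of M-values (TMM). The principal component holding 17.9% of the variance set the libraries numbered 3 in both groups apart from the others. Wells of the same replicate number are treated as pairs where stated. No label says whether a well stands for a separate animal, plate or day, so p-values describe spread between wells, which may be technical.

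With conditioned medium, 5 of the 9 genes changed, 2 higher and 3 lower, at an adjusted p under 0.05 in edgeR's quasi-likelihood test with Benjamini-Hochberg adjustment over all tested genes. Cxcl2 and Pf4 rose. Cxcl10, Cxcl9 and Cxcl16 fell. Of all tested genes, 27.9% changed, 12.6% higher and 15.2% lower. The groups did not overlap for 5 of the 9 genes, against 42.8% of all tested genes. The median log2 fold change over the 9 genes was -0.22, against 0.013 over all tested genes. The 9 genes were chosen with earlier results of these data known, so these counts are a description.

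**Figure D1:**
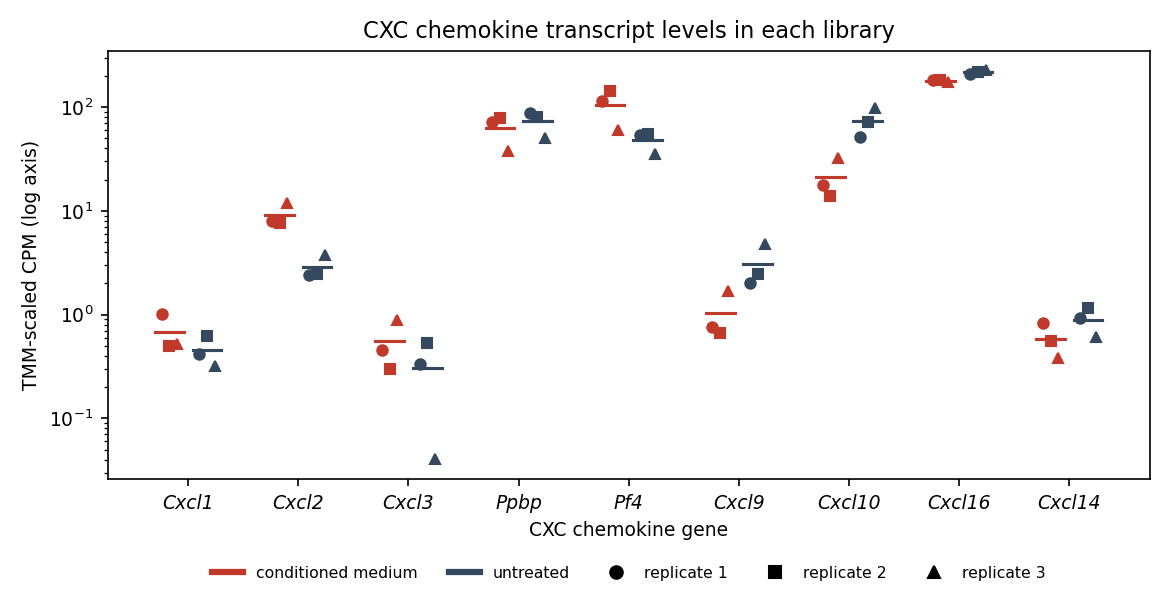
TMM-scaled CPM of the 9 genes on a log axis, with 1 symbol per library (circle, square and triangle for replicates 1, 2 and 3), conditioned medium in red and untreated in dark blue, and bars for the means. Cxcl2 and Pf4 lie higher in every conditioned-medium library, and Cxcl9, Cxcl10 and Cxcl16 lie lower.

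Of the 9 genes, 7 lie in chromosome 5 clusters (GRCm38, coordinates of the deposited table). The cluster from Cxcl5 to Cxcl2 spans 146.6 kb (90759360 to 90905938) and holds Cxcl5, Ppbp, Pf4, Cxcl3, Cxcl15, Cxcl1 and Cxcl2 in that order, all on the plus strand. The cluster of Cxcl9, Cxcl10 and Cxcl11 spans 44.14 kb (92321347 to 92365485) on the minus strand. The remaining members are Cxcl16 on chromosome 11 (70453983 to 70459984) and Cxcl14 on chromosome 13 (56288643 to 56296551), both on the minus strand. Both genes that rose lie in the plus-strand cluster, beside 3 members that did not pass the test. Both tested genes of the minus-strand cluster fell.

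The proximal promoters of the neutrophil attractants and of Cxcl10 are shown because they carry binding motifs of the pathways known to induce these genes. RefSeq promoters (GRCm38.p6, 250 bases before to 50 after the start site) were found for 8 of the 9 genes, the exception being Cxcl16. The longest run of letters that the promoters of Cxcl1, Cxcl2 and Cxcl3 share upstream of the start site is GGGAATTTCCC, an instance of the NF-kB consensus. Searched on both strands, it occurs in 14 of 32851 mouse promoters (0.0426%). The run was picked because these promoters share it, and the 14 include them, so that share does not measure how unusual the sharing is. Its first base lies at position -71 from the start site in Cxcl1, at -97 in Cxcl2 and at -73 in Cxcl3. Each stretch below is from the plus strand of GRCm38.p6, and capitals mark the shared run.
Cxcl1, chr5:90891154-90891228: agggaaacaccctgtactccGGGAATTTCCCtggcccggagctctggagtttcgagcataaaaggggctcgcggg
Cxcl2, chr5:90903782-90903856: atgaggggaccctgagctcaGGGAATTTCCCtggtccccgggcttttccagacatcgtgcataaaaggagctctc
Cxcl3, chr5:90786008-90786082: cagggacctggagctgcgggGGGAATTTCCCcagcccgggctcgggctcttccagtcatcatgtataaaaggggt
Aligned at that run without gaps, these 75-base stretches were identical at 33 bases between Cxcl1 and Cxcl2, 34 between Cxcl1 and Cxcl3 and 28 between Cxcl2 and Cxcl3.

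The core of the interferon-response element, taken as GAAA, any 2 bases and GAAA on either strand, occurs in 3.44% of promoters, and among the 8 in those of Cxcl10 and Cxcl14. The broader NF-kB consensus occurs in 4.51% of promoters on either strand, and in Cxcl10 at a pair of places. In the stretch below, from the minus strand, capitals mark in order the interferon-response core, which starts at position -213, and the NF-kB matches, which start at -159 and -103.
Cxcl10, chr5:92348970-92349114: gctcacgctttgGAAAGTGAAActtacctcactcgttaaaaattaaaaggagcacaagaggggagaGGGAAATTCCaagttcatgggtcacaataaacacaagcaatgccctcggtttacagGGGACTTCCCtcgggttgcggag
The windows of Cxcl9, Ppbp and Pf4 held neither motif. A match describes letters in a window and is not evidence of binding.

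Among the neutrophil attractants, Cxcl2 rose and the paralogs Cxcl1 and Cxcl3 were scarce and did not pass the test. Cxcl2 (ENSMUSG00000058427, chromosome 5, 90903871 to 90905938) stood at 8.004, 7.58 and 11.8 CPM in conditioned-medium wells 1 to 3, against 2.43, 2.44 and 3.73 CPM in untreated wells 1 to 3. The groups did not overlap, and well 3 was the highest of each group. Its mean was 9.13 ± 2.33 CPM in conditioned medium and 2.86 ± 0.750 CPM in untreated wells (SD, n = 3 each), a rise of 3.18-fold (edgeR log2 fold change 1.67, SE 0.22, adjusted p = 0.000566). Within pairs the log2 difference was 1.72, 1.64 and 1.66.

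Cxcl1 (ENSMUSG00000029380, 90891241 to 90893115) had 31, 15 and 15 counts in conditioned medium, against 10, 15 and 8 counts in untreated wells. The groups overlapped in CPM, with untreated well 2 at 0.619 CPM above conditioned-medium wells 2 and 3 at 0.493 and 0.516 CPM. Conditioned-medium well 1 stood above the rest. Its log2 fold change was 0.58 (SE 0.42, adjusted p = 0.347, edgeR). Cxcl3 (ENSMUSG00000029379, 90786103 to 90789600) had 14, 9 and 26 counts in conditioned medium, against 8, 13 and 1 in untreated wells, and its groups overlapped. Its log2 fold change was 0.85 (SE 0.66, adjusted p = 0.386, edgeR). Leaving out 1 library moved the Cxcl3 value between 0.31 and 1.54 (the higher one without untreated replicate 2), and without both libraries numbered 3 it was -0.21 (adjusted p = 0.813). No difference was detected for either gene. Of the 2159 distinct 50-base words in Cxcl2 transcripts, 126 also occur in Cxcl3, so a small part of their reads may be shared or left uncounted, while Cxcl1 shared none with another gene.

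Neutrophils also transcribe Cxcl2. All 10 of 10 neutrophil markers were detected, with summed levels of 726 to 823 CPM in conditioned medium and 621 to 827 CPM in untreated wells, so the ranges overlapped. Csf3r, S100a9 and S100a8 made up most of that sum. They averaged 233, 220 and 135 CPM in conditioned medium, against 214, 194 and 108 CPM in untreated wells. Of the 10 markers, 1 was higher and 2 were lower, against 12.6% and 15.2% of all tested genes. With the replicate number as a block 6 were higher and 3 lower, and 36.3% of all tested genes changed in either direction. At an unadjusted p under 0.05, 5 of the markers were higher and 2 lower, and DESeq2 and limma-voom each called 2 higher and 2 lower. The part of neutrophils in the rise of Cxcl2 was not tested. In bulk samples, a change in the number of cells of a type and a change in RNA per cell cannot be told apart.

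Of the platelet-type genes, which are neighbours on the plus strand separated by 2371 bases, Pf4 rose and Ppbp did not. Pf4 (ENSMUSG00000029373, 90772435 to 90773383) stood at 115, 141 and 59.96 CPM in conditioned-medium wells 1 to 3, against 53.9, 55.1 and 35.5 CPM in untreated wells 1 to 3. The groups did not overlap, and well 3 was the lowest of each group. Its mean was 105 ± 41.6 CPM in conditioned medium and 48.1 ± 11.0 CPM in untreated wells (SD, n = 3 each), a 2.19-fold rise (log2 fold change 1.13, SE 0.28, adjusted p = 0.0143, edgeR). Without conditioned-medium replicate 1 the adjusted p was 0.0544, and without conditioned-medium replicate 2 it was 0.0540.

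Ppbp (ENSMUSG00000029372, 90768518 to 90770063) stood at 71.1, 78.8 and 37.97 CPM in conditioned medium, against 88.4, 80.5 and 50.7 CPM in untreated wells. Well 3 was again the lowest of each group, and the groups overlapped. The log2 fold change was -0.22 (SE 0.26, adjusted p = 0.576, edgeR). With the replicate number as a block it fell by 0.25 on the log2 scale (SE 0.061, adjusted p = 0.00523, edgeR), and it was lower in conditioned medium in each of the 3 pairs. The log2 difference within pairs was -0.32, -0.031 and -0.42. Without conditioned-medium replicate 3, and without the block, the log2 fold change of Ppbp was 0.031 (adjusted p = 0.929, edgeR).

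The number of Pf4 counts per Ppbp count, which does not depend on library scaling, was 1.62, 1.80 and 1.58 in conditioned-medium wells, against 0.609, 0.684 and 0.700 in untreated wells. The ratio averaged 1.66 ± 0.115 in conditioned medium and 0.664 ± 0.0487 in untreated wells (SD, n = 3 each), a 2.50-fold difference. It was chosen after the values were seen. The exact permutation test, two-sided, gave p = 0.1, which is the smallest that 3 against 3 wells allow (0.2 adjusted over the 2 ratios examined).

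Platelets and megakaryocytes also carry Pf4 and Ppbp transcripts. Of 15 of their markers, 14 were tested in edgeR. Of these, 0 rose and 2 fell (Vwf and Gp5), against 12.6% and 15.2% of all tested genes. With the replicate number as a block 6 of the markers fell, and 36.3% of all tested genes changed in either direction. At an unadjusted p under 0.05, 0 of the markers were higher and 4 lower, and DESeq2 and limma-voom likewise called 0 higher and 2 lower. Gp1bb was at 0 counts in each library. Their summed level was 202, 225 and 141 CPM in conditioned-medium wells, against 324, 289 and 250 CPM in untreated wells, and, like both chemokines, it was lowest in well 3 of each group. Vwf, which encodes von Willebrand factor and is also made by endothelium, was 2.23-fold lower in conditioned medium (adjusted p = 2.34e-06, edgeR). It averaged 42.2 CPM in conditioned medium and 94.4 CPM in untreated wells and so made up much of the difference in the sum. The other 14 markers summed to 162, 179 and 101 CPM in conditioned-medium wells, against 229, 196.5 and 154 CPM in untreated wells, and these groups overlapped. Itgb3 was the largest part of that remaining sum, at 58.9 CPM on average in conditioned medium and 82.0 CPM in untreated wells (adjusted p = 0.0966, edgeR). The part of platelets and megakaryocytes in the Pf4 level was not tested.

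**Figure D2:**
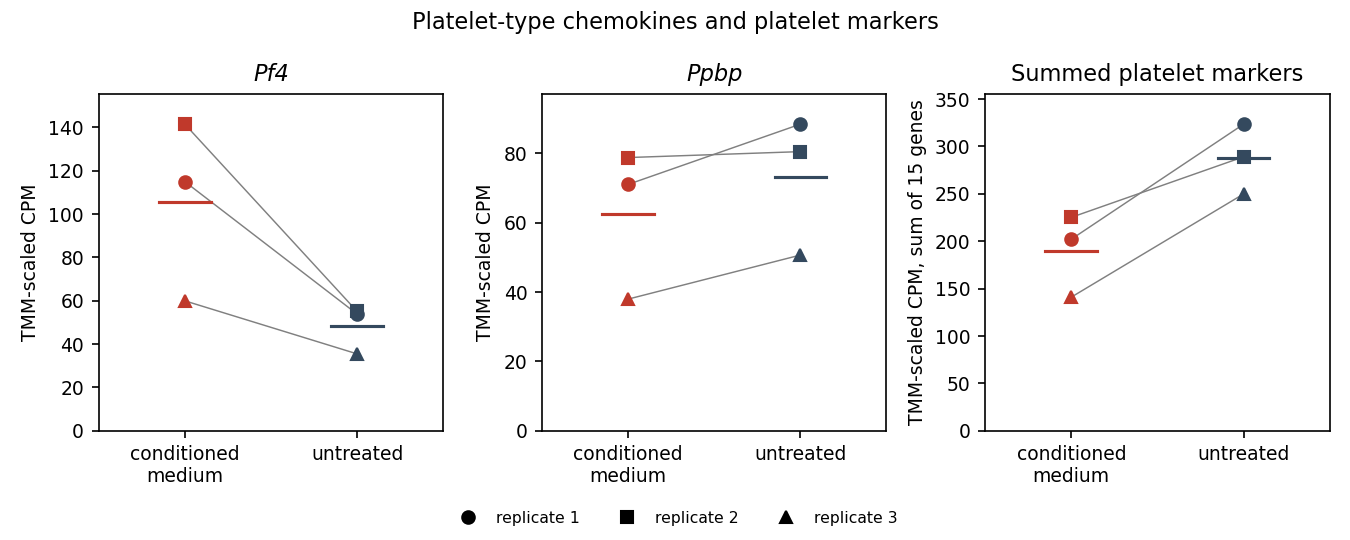
TMM-scaled CPM of Pf4, of Ppbp and of the summed 15 platelet and megakaryocyte markers in each library, with lines joining wells of the same replicate number and bars for the means. Pf4 is higher in each conditioned-medium well than in its untreated partner, whereas Ppbp and the markers are lower, and well 3 is the lowest of its group in each panel.

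The interferon-induced members fell together. Cxcl10 (ENSMUSG00000034855, chromosome 5, 92346638 to 92348889) stood at 17.6, 13.99 and 32.6 CPM in conditioned-medium wells 1 to 3, against 51.9, 71.2 and 97.8 CPM in untreated wells 1 to 3. The groups did not overlap, and well 3 was the highest of each. The mean was 21.4 ± 9.86 CPM in conditioned medium and 73.6 ± 23.0 CPM in untreated wells (SD, n = 3 each), so that Cxcl10 fell by 1.79 on the log2 scale (SE 0.30, adjusted p = 0.00201, edgeR). Of the 2252 exonic bases of Cxcl10, 133 are shared with Art3 on the opposite strand, so reads there may have been left uncounted. Art3 held 1.67 counts per library on average in either group.

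Cxcl9 (ENSMUSG00000029417, 92321347 to 92328079) was far scarcer, at 0.754, 0.657 and 1.69 CPM (23, 20 and 49 counts) in conditioned medium, against 2.01, 2.48 and 4.73 CPM (48, 60 and 118 counts) in untreated wells. Its groups did not overlap in CPM, with well 3 again the highest of each. It was 2.99-fold lower in conditioned medium (log2 fold change -1.58, SE 0.42, adjusted p = 0.0210, edgeR). Leaving out a single library ended that call in 3 cases, with an adjusted p of 0.0837 when conditioned-medium replicate 1 was omitted, 0.0720 when its replicate 2 was, and 0.0716 when untreated replicate 3 was. The number of Cxcl10 counts per Cxcl9 count was 23.3, 21.3 and 19.3 in conditioned medium, against 25.9, 28.8 and 20.7 in untreated wells, ranges that overlapped (exact permutation p = 0.3, two-sided, and 0.3 adjusted over the 2 ratios). Cxcl11, the third gene of the cluster and another Cxcr3 ligand, had at most 1 count in any library.

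Other cells make these chemokines or the interferons that induce them. Of 8 dendritic cell markers, 7 were tested in edgeR, 0 rose and 3 fell, against 12.6% and 15.2% of all tested genes. Those that fell were Flt3, Ccr7 and Clec9a. The marker counts were 0 and 4 at an unadjusted p under 0.05, 0 and 4 in DESeq2, and 0 and 2 in limma-voom. The summed level of the 8 markers was 10.1 to 15.8 CPM in conditioned medium and 19.97 to 28.6 CPM in untreated wells. Ccr7 averaged 7.01 CPM in conditioned medium and 13.9 CPM in untreated wells and so made up much of the sum and of its difference. The part of dendritic cells in the fall of Cxcl9 and Cxcl10 was not tested. Summed T and NK cell markers stood at 0.861 to 1.15 CPM in conditioned medium and 0.962 to 1.82 CPM in untreated wells, with 2 of 7 high enough to test in edgeR and 0 called (1 at an unadjusted p under 0.05, and 0 in DESeq2 and limma-voom). Ifng, the gene of interferon gamma, had 1 count over all libraries.

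Cxcl16 encodes a chemokine tethered to the membrane that also acts as a scavenger receptor and is released by the protease Adam10. It was the most abundant member in CPM and the least variable. It stood at 182, 183 and 175 CPM in conditioned-medium wells, against 208, 219 and 226 CPM in untreated wells. The groups did not overlap, and the fall was 1.21-fold (ENSMUSG00000018920, log2 fold change -0.28, SE 0.046, adjusted p = 0.00178, edgeR). Of its 3021 exonic bases, 552 are shared with Zmynd15 on the opposite strand. Zmynd15 averaged 671 raw counts in conditioned medium and 601 raw counts in untreated wells. These are not scaled, and the untreated libraries had lower total counts. The strand setting of the counting is not given, so reads in the shared bases may have been left uncounted or given to either gene. The size of that uncertainty in the Cxcl16 counts is not known.

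Cxcl14, a chemokine of epithelia and stroma, was near the limit of the test. It had 25, 17 and 11 counts in conditioned medium, against 22, 28 and 15 in untreated wells, and its groups overlapped. Its log2 fold change was -0.60 (ENSMUSG00000021508, SE 0.37, adjusted p = 0.278, edgeR). Of 7 fibroblast markers, 6 were tested in edgeR and 0 were called, against 27.9% of all tested genes. With the replicate number as a block 4 were higher in conditioned medium and 0 lower, and 36.3% of all tested genes changed in either direction. At an unadjusted p under 0.05 there was 1, and in DESeq2 and limma-voom 0. The fibroblast markers summed to 31.7 to 93.9 CPM in conditioned medium and 16.6 to 67.4 CPM in untreated wells. Epithelial tumour cell markers summed to 0.688 to 1.44 CPM in conditioned medium and 0.836 to 1.24 CPM in untreated wells, with 1 of 6 high enough to test in edgeR and 0 called, also at an unadjusted p under 0.05 and in DESeq2 and limma-voom.

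**Figure D3:**
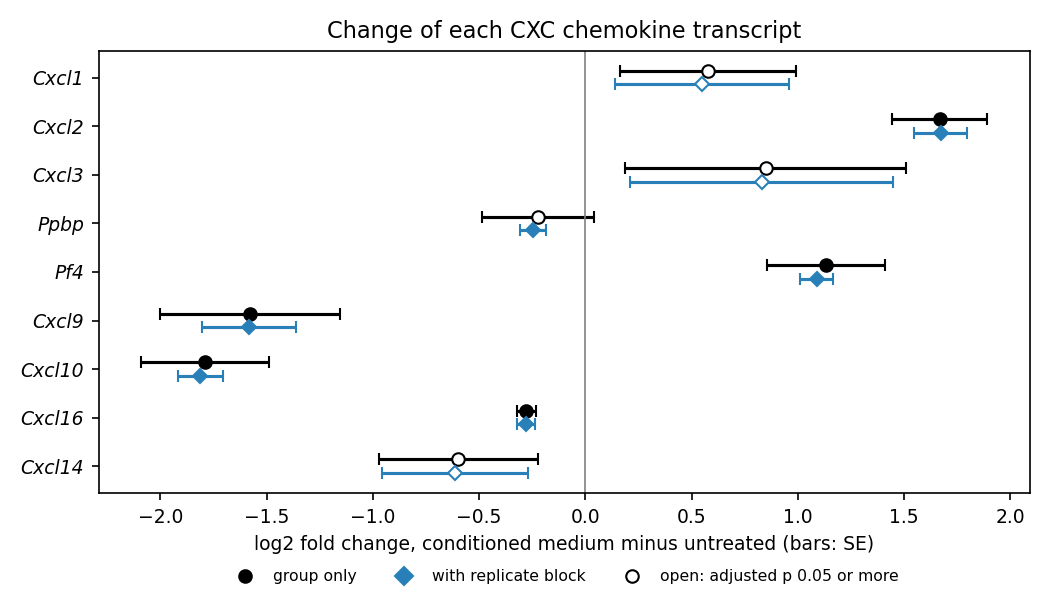
Log2 fold change of each gene, conditioned medium minus untreated, with SE bars, from the fit on the groups alone (circles) and with the replicate number as a block (diamonds). Filled symbols have an adjusted p under 0.05, and Ppbp is the member whose call differs between the fits.

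Cxcl2, Cxcl9 and Cxcl10 were highest in well 3 of both groups, whereas Pf4 and Ppbp were lowest there. Cxcl16 was lowest in well 3 of conditioned medium and highest in well 3 of the untreated group. With the replicate number as a block the SE fell to 0.11 for Cxcl10 and 0.077 for Pf4 but was 0.043 for Cxcl16, near its value without the block, and 6 of the 9 members passed the test, against 36.3% of all tested genes.

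**Figure D4:**
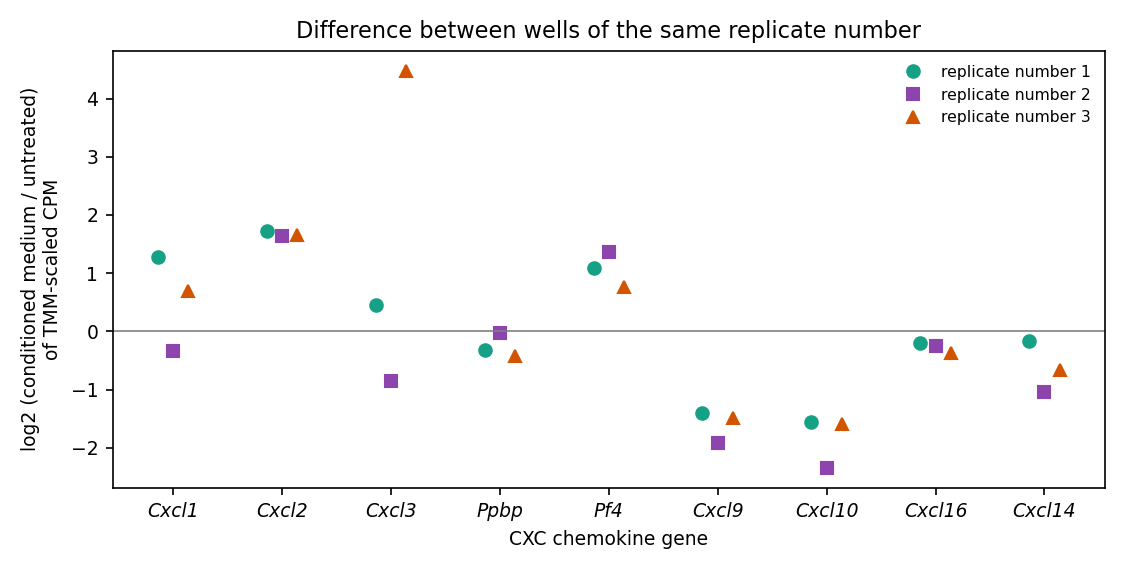
Log2 ratio of TMM-scaled CPM between the conditioned-medium and the untreated well of the same replicate number, for each of the 9 genes. Cxcl2 and Pf4 lie above 0 in each pair and Cxcl9, Cxcl10, Cxcl16 and Cxcl14 below it, while Cxcl1 and Cxcl3 take both signs, and the top Cxcl3 point rests on 1 count in the untreated well.

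Per kilobase of gene length as the table gives it, the order of levels differed between the groups. In conditioned medium Pf4 was highest at 146 ± 57.7 CPM per kb, followed by Cxcl16 (59.4 ± 1.46) and Ppbp (57.8 ± 20.03), which did not differ beyond their spread. Cxcl10 (9.49 ± 4.38) and Cxcl2 (4.42 ± 1.12) came next, and Cxcl1, Cxcl9, Cxcl14 and Cxcl3 lay between 0.360 and 0.157 CPM per kb, within each other's spread. In untreated wells Cxcl16 (72.1 ± 2.97 CPM per kb), Ppbp (67.6 ± 18.4) and Pf4 (66.8 ± 15.2) were not separated by their spread, and Cxcl10 followed at 32.7 ± 10.2 CPM per kb. Cxcl2 (1.38 ± 0.362 CPM per kb) and Cxcl9 (1.02 ± 0.483 CPM per kb) came after it, also within their spread. Cxcl14, Cxcl1 and Cxcl3 were lowest, from 0.489 to 0.0868 CPM per kb. All of these values are means ± SD with n = 3.

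Other CXC ligands were few. Of the 6 other CXC ligand genes examined, Cxcl5 and Cxcl12 were high enough to test and 0 passed in edgeR, DESeq2 and limma-voom (1 at an unadjusted p under 0.05). Cxcl12, the stromal ligand of Cxcr4, stood at 9.38, 4.56 and 2.68 CPM in conditioned medium, against 4.098, 0.7845 and 1.88 CPM in untreated wells, and the groups overlapped. Its log2 fold change was 1.30 (SE 0.55, adjusted p = 0.114, edgeR), and 1.31 with the replicate number as a block (adjusted p = 0.000447). Its value rested on single libraries. Omitting conditioned-medium replicate 1 gave 0.69 (adjusted p = 0.437), and omitting untreated replicate 2 gave 0.90 (adjusted p = 0.289). Omitting conditioned-medium replicate 3 gave 1.63 (adjusted p = 0.0399), and omitting untreated replicate 1 gave 2.05 (adjusted p = 0.0379). The fibroblast marker sums, also highest in well 1 of each group, stood at 93.9, 36.2 and 31.7 CPM in conditioned medium and 67.4, 16.6 and 33.04 CPM in untreated wells, and their part in the Cxcl12 level was not tested. Cxcl15 had 0 counts in each library, and Cxcl13 and Cxcl17 had at most 2 counts in any library.

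Of 8 genes for CXC receptors and atypical receptors, 6 were tested in edgeR, 1 rose and 0 fell (1 and 1 with the block). The counts were 2 and 0 at an unadjusted p under 0.05, and 1 and 0 in DESeq2 and in limma-voom. Over all tested genes in edgeR 12.6% rose and 15.2% fell (36.3% changed with the block). The receptor gene that rose was Cxcr2, whose product binds the neutrophil attractants. It stood at 15.2 ± 4.71 CPM in conditioned medium and 8.75 ± 0.371 CPM in untreated wells (SD, n = 3 each, log2 fold change 0.80, adjusted p = 0.0178, edgeR). That call was lost without either of conditioned-medium replicates 1 and 2 and without either of untreated replicates 1 and 2, with an adjusted p of 0.0734, 0.0638, 0.0616 and 0.0609. With the block, Cxcr1 fell, with a log2 fold change of -0.88 without it (adjusted p = 0.162) and an adjusted p of 0.00151 with it.

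Genes that store, bind or cleave chemokines changed in both directions. Of 10 tested, 3 rose and 5 fell, against 12.6% and 15.2% of all tested genes, with a median log2 fold change of -0.11. Srgn, encoding serglycin, the granule proteoglycan that binds Pf4, rose to 131 ± 3.48 CPM in conditioned medium, against 87.97 ± 4.202 CPM in untreated wells (adjusted p = 3.30e-05, edgeR). Mmp8, a collagenase gene whose product cleaves chemokines, rose 2.07-fold. Sdc1 and Sdc3, which encode heparan sulfate proteoglycans of the cell surface, were 2.45-fold and 2.12-fold lower.

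Of 21 genes on the NF-kB route to the neutrophil attractants, 3 rose and 5 fell (6 and 5 with the block). Over all tested genes 12.6% rose and 15.2% fell (36.3% changed with the block), so the count that rose was near the overall share. The list had a median log2 fold change of -0.0054. Il1b, encoding interleukin-1 beta, an inducer of Cxcl1 and Cxcl2, rose to 17.97 ± 2.40 CPM in conditioned medium, against 4.68 ± 0.665 CPM in untreated wells. Tnf, encoding tumour necrosis factor, another inducer, fell to 9.12 ± 1.85 CPM in conditioned medium, against 29.2 ± 3.35 CPM in untreated wells. Tnfaip3, a feedback inhibitor, and Nfkbiz, a nuclear cofactor of NF-kB, were 1.53-fold and 1.52-fold lower. Without scaling beyond the total count the split of this list turned to 6 higher and 3 lower.

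Of 18 genes on the interferon route to Cxcl9 and Cxcl10, 16 were tested, 3 rose and 7 fell. The shares over all tested genes were 12.6% and 15.2%. The list had a median log2 fold change of -0.15. Irf7, a transcription factor gene that interferon induces, fell to 113 ± 32.4 CPM in conditioned medium, against 361 ± 79.2 CPM in untreated wells (adjusted p = 0.000303, edgeR). The kinase gene Jak2 was 1.24-fold lower. Ifngr1, encoding the ligand-binding chain of the interferon gamma receptor, rose 1.41-fold. Ifnb1, the gene of interferon beta, had 0, 0 and 2 counts in conditioned medium, against 4, 0 and 6 in untreated wells, too few to test.

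**Figure D5:**
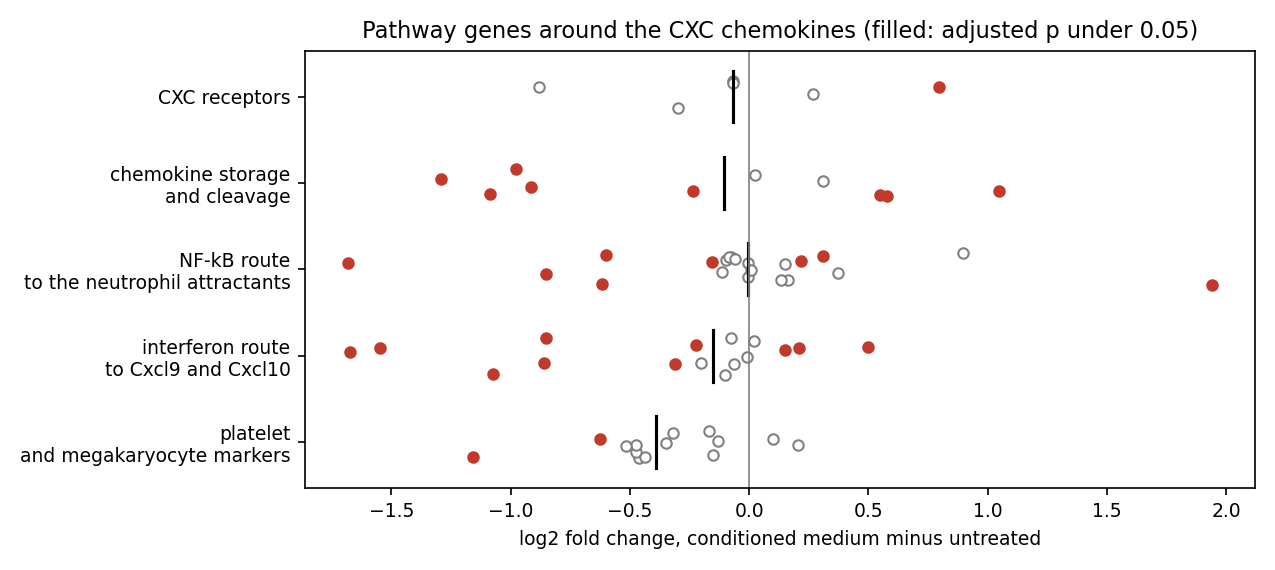
Log2 fold change, conditioned medium minus untreated, of each tested gene in 5 lists (rows), with filled points for an adjusted p under 0.05 and bars for the list medians. The median of the interferon route was -0.15, that of the NF-kB route -0.0054 and that of the platelet and megakaryocyte markers -0.39.

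The genes whose levels followed those of the members most closely over the 6 libraries were found among 9293 genes of at least 5 CPM on average, as a description that includes the difference between the groups. Cxcl10 was followed by the interferon-induced genes Ifit1 (Pearson r = 0.999), Usp18 (0.999) and Slfn5 (0.999), which had log2 fold changes of -1.42, -1.55 and -0.84. Cxcl9 was followed by Ogfr (0.998), the guanylate-binding protein gene Gbp2 (0.998) and Vasp (0.997). Pf4 was followed by the iron exporter gene Slc40a1 (0.997), by Pecam1 (0.996), an adhesion molecule of platelets, endothelium and leukocytes that rose by 1.13 on the log2 scale, and by Kctd11 (0.995). Ppbp was followed by the platelet glycoprotein gene Gp1ba (0.993), Bzw2 (0.989) and Pak2 (0.987). Cxcl2 was followed by the glycogen synthase gene Gys1, by Zfhx3 and by Cd101, and Cxcl16 by the Fc receptor gamma chain gene Fcer1g, by Taok3 and by Pla2g4a, at r of 0.997 to 0.999. Such values arise readily among so many genes over 6 libraries that share groups and pairs.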

How the data were processed

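The table that the authors deposited holds raw counts for every gene in each of the 6 libraries. HISAT2, featureCounts and the GRCm38 build are named in the submitters' processing notes. The sources used here give no versions, annotation release, strand setting or treatment of multimapped reads. The gene length in bases is another column that the authors deposited. Symbols came from GENCODE M21 by identifier (55240 of 55421 genes).

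Genes were kept by filterByExpr, scaled by TMM and tested on the group alone with edgeR 4.0.16 (limma 3.58.1, R 4.3.3). P-values were adjusted over the 13853 tested genes, with a threshold of 0.05. The SE was derived from the F statistic. On simulated counts for 13853 genes, 200 of them changed, the test called 82.0% of 2-fold changes. The simulation held no pair effect and pooled genes of all levels, so that share need not apply to genes with few counts. A count of 0 in a library allows up to 3 counts (0.0999 to 0.124 CPM, counting error only).

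The labels number the samples 1 to 3 in both groups without saying what a number stands for. Deviations from the group means correlated at 0.328, 0.161 and 0.309 between wells of the same number, so the numbers were taken as pairs, from the data and not from the labels.

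Named genes were the 9 members, up to 4 genes per pathway list by smallest p (the smallest p where none passed), and the 3 genes most correlated with each member. Not all genes that this rule allows are reported here. Untested list genes with their counts, Cxcr1 and genes named beside a blocked value were added after their values were seen. So were the named platelet, macrophage, neutrophil and dendritic cell markers. The members and lists were chosen with earlier results of these data known. The alternatives tried were scaling by RLE or by the total alone, DESeq2 1.42.0, limma-voom, other filters, a replicate block and each library left out. Omitting both libraries numbered 3 and the Pf4 to Ppbp ratio were chosen after seeing the data. Promoters came from RefSeq (GRCm38.p6).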

Additional observations from a re-analysis of the deposited data

How the results depend on the processing

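The calls of Cxcl2, Cxcl10 and Cxcl16 kept their direction and their side of the threshold under each of the 14 alternatives, and no member that passed the test turned direction. With the replicate block 5023 genes changed, against 3861 without it, and the block changed no call among the members other than that of Ppbp. The count of changed members was 5 with RLE scaling, without scaling beyond the total count, with DESeq2, with limma-voom and with either other filter, and a mean of at least 1 CPM left 6 members to test. Leaving out 1 library gave 3 to 5 changed members, 1 to 2 higher and 2 to 3 lower, with 2725 to 3654 genes changed in all and 20 to 32 changed pathway list members. Fewer libraries were then fitted. Without both libraries numbered 3, 4080 genes changed. The Pf4 to Ppbp ratio differed by 2.40-fold to 2.57-fold with 1 library left out. Without scaling beyond the total count the median of all genes moved to 0.070, and 60.8% of called genes were higher, against 45.3%. Cxcl1, Cxcl3 and Cxcl14 had 1 to 31 counts per library, which limits the precision of their values.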
